A study of Mus musculus with 6 samples.

Results

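Axon guidance ligands and receptors are cell surface and secreted proteins of the ephrin, semaphorin, netrin and slit systems. Members were taken by gene symbol: ephrins and Eph receptors, semaphorins, plexins, neuropilins, slits, robos, netrins and Unc5 receptors. Each gene was read from 1 probe set with no other symbol, the one with the highest mean over all arrays. This gave 66 genes of 22180 that could be read in this way, 34 ligands and 32 receptors in 9 families. The study asked what astrocytes do in early myelin repair. Each of 6 arrays held total RNA of 1 macrodissected brain lesion, 3 from wild type mice and 3 from transgenic mice in which non-proliferative GFAP+ astrocytes can be eliminated by induced apoptosis. All animals, of both genotypes, were lesioned at 5 to 6 weeks of age with LPC, a lipid that strips myelin, received CID, which starts the ablation, 48 hours later, and were analysed 7 days after the lesion. The labels do not name the transgene's promoter or line, and they leave unsaid whether each lesion of a group is from its own animal. The p-values therefore describe spread among these lesions alone, and that spread may be technical.

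In development these systems steer growing axons and migrating cells by attraction and repulsion. Ephrins bind Eph receptor tyrosine kinases on neighbouring cells. Semaphorins bind plexins, with neuropilins as co-receptors for most secreted class 3 members. Netrins act through Dcc and the repulsive Unc5 receptors, and slits act through robos. In adult white matter several of them are made by oligodendrocytes, the myelinating cells, or guide oligodendrocyte precursors.

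All levels are given as log2 intensity, and a negative difference means a lower level in the transgenic group. Wild type lesions held less spread than transgenic ones, with a median SD of 0.15 against 0.22 over the 66 genes. Over all 22180 genes it was 0.13 against 0.23. Semaphorins (0.19 against 0.17) and neuropilins (0.30 against 0.12) went the other way. Over the members the median standard error of a difference was 0.19. Transcripts of Y-linked genes stood above Xist in transgenic replicates 1 and 3 and below it on the other 4 arrays, so genotype and sex overlapped. Myelin markers (14 of 15 listed measured, all 14 lower in transgenic lesions) had list means between 9.11 and 9.53 on wild type arrays and between 8.31 and 8.68 on transgenic arrays. Striatal neuron markers (6 of 9 measured) reached 8.17 and 8.72 in replicates 2 and 3 of wild type while the other 4 arrays ranged from 6.20 to 6.69. Microglia and macrophage markers (13 of 13) ranged from 7.78 to 9.27 on wild type and from 7.67 to 8.73 on transgenic arrays, highest in wild type replicate 1. Cortical neuron markers (7 of 8) lay between 7.77 and 7.79 in wild type and at 7.79, 8.51 and 8.29 in transgenic replicates 1, 2 and 3. Astrocyte markers (11 of 11) ranged from 8.17 to 8.32 and from 7.66 to 8.21, lowest in transgenic replicate 1. Lists other than myelin also moved in 1 direction. All 9 oligodendrocyte precursor, all 6 striatal and all 7 measured neuroblast markers were lower in transgenic lesions, and all 7 cortical markers higher. Astrocyte markers were mixed (8 lower, 3 higher), as were microglia and macrophage markers (10 lower, 3 higher). In bulk tissue fewer cells of a type and less RNA per cell cannot be told apart.

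The 66 genes were balanced between the directions. Their means were lower in the transgenic group for 34 and higher for 32, where 51.3% of all genes were lower, and the median difference was -0.01 over the members and over all 22180 genes. In limma, no member passed an adjusted p of 0.05, and 0.0% of all probe sets did. At an unadjusted p under 0.05 there were 9 members (13.6%), against 6.98% of all genes. Of the 66 members, 5 were lower at this threshold (Efnb3, Plxnb3, Plxnb2, Sema6a and Sema4d), against 678 of 22180 genes (3.06%). Another 4 of the 66 were higher (Epha7, Sema3e, Robo3 and Slit2), against 871 of 22180 genes (3.93%). The groups did not overlap in 10 members (15.2%), a share like the 15.4% of all genes. Of the 66, 7 were lower without overlap, against 1553 of 22180 genes (7.0%). Higher without overlap were 3 of the 66, against 1858 of 22180 genes (8.38%). The count of higher members at an unadjusted p under 0.05 fell to 1 when wild type replicate 1 was left out, to 2 when wild type replicate 2 was, and to 0 when transgenic replicate 3 was; it was 10 in the absence of transgenic replicate 1. The count of lower members was 3 without wild type replicate 1. Shares over all probe sets at an unadjusted p under 0.05, in either direction, moved as well, from 8.87% with all arrays. Without wild type replicate 1 the share was 4.91%, and without wild type replicate 2 it was 5.45%. It was 12.5% without transgenic replicate 1 and 9.17% without transgenic replicate 3. Without transgenic replicate 2, 1 member passed the adjusted threshold, Efnb3, as did 335 of 41345 probe sets (0.81%), in a subset where all transgenic arrays differ from wild type in sex markers.

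**Figure D1:**
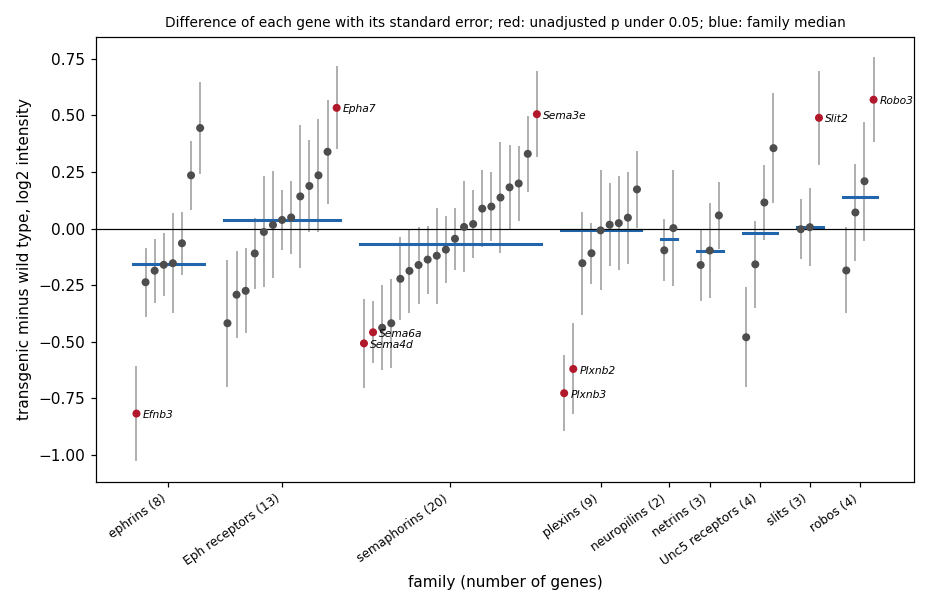
Each point is 1 gene, with the transgenic minus wild type difference in log2 intensity on the vertical axis, its standard error as a bar, and families along the horizontal axis. Red points have an unadjusted p under 0.05 and blue lines are family medians, which run from -0.16 for ephrins to 0.14 for robos.

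Each of the 9 families had members on both sides of 0, and families did not move as blocks. Family medians were -0.16 for 8 ephrins, -0.07 for 20 semaphorins, -0.10 for 3 netrins, -0.05 for 2 neuropilins, -0.02 for 4 Unc5 receptors and -0.01 for 9 plexins. They were 0.01 for 3 slits, 0.04 for 13 Eph receptors and 0.14 for 4 robos. By class, the B-type plexins (median -0.62 over 3 genes), the class 6 semaphorins (-0.28 over 4), the class 5 semaphorins (-0.265 over 2) and the ephrin-B ligands (-0.19 over 3) had the lowest medians, and class 3 semaphorins the highest among classes of several genes (0.18 over 7).

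**Figure D2:**
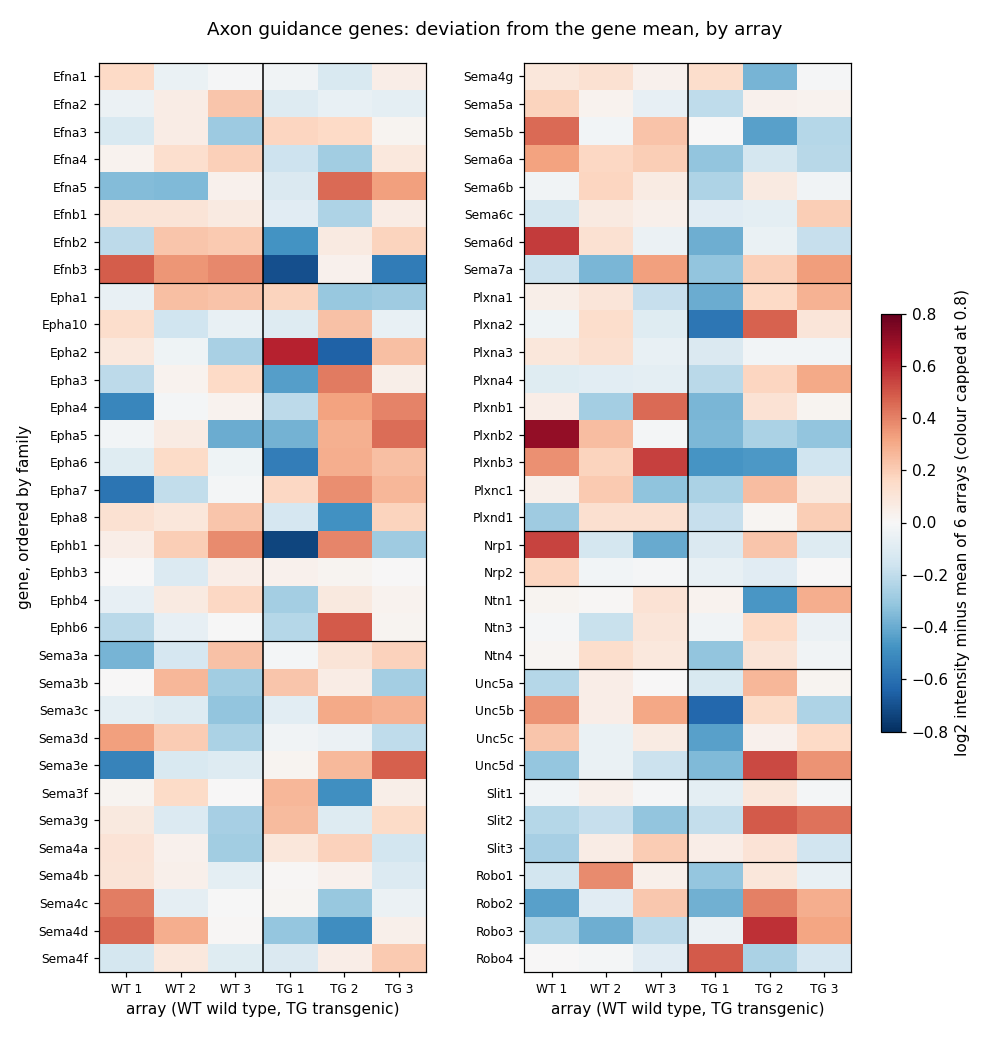
Rows are the 66 genes in order of family and columns the 6 arrays; colour gives the log2 intensity minus the gene's mean over all arrays. Efnb3, Plxnb3 and Sema6a are red on all 3 wild type arrays, and transgenic replicate 1 is the lowest array for 25 genes.

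Among the 8 ephrins, Efnb3 stood out. Ephrin-B3 is a transmembrane ligand of EphB receptors and EphA4 that is present on myelinating oligodendrocytes and inhibits axon outgrowth and precursor differentiation. Its level (probe set 17264769) in replicates 1, 2 and 3 was 7.99, 7.86 and 7.89 for wild type and 6.80, 7.54 and 6.94 for transgenic lesions, the order of replicates kept for every gene below. The wild type arrays lay close together and above every transgenic array, of which replicate 2 came nearest. The means were 7.91 ± 0.07 (SD, n = 3) and 7.09 ± 0.39, a 1.76-fold lower level in transgenic lesions (difference -0.82, SE 0.21). In limma the unadjusted p was 0.00569 and the adjusted p 0.429. With a term for sex, a fit in which only transgenic replicate 2 sets the groups apart within a sex, the difference was -0.37 at an unadjusted p of 0.0797.

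The other ephrin-B ligands are Efnb1, which is X-linked, and Efnb2, which also marks arterial endothelium. Efnb1 differed by -0.19 without overlap between the groups, and Efnb2 by -0.15. Ephrin-A ligands are held in the membrane by a lipid anchor. Efna5, a repellent of cortical and retinal axons, stood at 6.67, 6.66 and 7.05 in wild type and at 6.90, 7.47 and 7.34 in transgenic lesions. Transgenic replicates 2 and 3 were the highest, and replicate 1 lay within the wild type range. The difference was 0.44 (SE 0.20, unadjusted p 0.0635, adjusted p 0.590). Efna3 differed by 0.24, Efna4 by -0.24, Efna2 by -0.16 (without overlap) and Efna1 by -0.07.

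Eph receptors were on balance neither higher nor lower, with 8 of 13 above and 5 below. Epha7, a receptor of ephrin-A ligands in cortex, was the one with an unadjusted p under 0.05. It stood at 6.71, 7.10 and 7.29 in wild type and at 7.46, 7.67 and 7.56 in transgenic lesions. Every transgenic array lay above every wild type array, and wild type replicate 1 was lowest. The means of 7.03 ± 0.29 and 7.57 ± 0.10 (SD, n = 3) differed 1.45-fold (0.53, SE 0.18). Its unadjusted p was 0.0215 and its adjusted p 0.495 in limma; the unadjusted p was 0.0761 without wild type replicate 1 and 0.0520 without transgenic replicate 3. With the striatal marker level as a covariate the difference was 0.85. Among wild type arrays only replicate 1 had a striatal level like those of transgenic arrays, so that fit leans on this array.

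Epha4 binds ephrins of both classes, Efnb3 included, and is made by neurons and by astrocytes. It stood at 8.61, 9.12 and 9.16 in wild type and at 8.93, 9.46 and 9.53 in transgenic lesions, where replicate 1 lay inside the wild type range. The difference of 0.34 (SE 0.23) had an unadjusted p of 0.182, and its 95% confidence interval ran from -0.20 to 0.88. Epha8 stood at 5.44, 5.41 and 5.54 in wild type and 5.18, 4.83 and 5.49 in transgenic lesions (difference -0.29, unadjusted p 0.170), at or below the median of most arrays, where dim signals are read with less certainty. Of the other EphA receptors, Epha5 differed by 0.24, Epha2 by 0.14, Epha10 by 0.05, Epha3 by 0.02, Epha6 by -0.01 and Epha1 by -0.27. Ephb1 differed by -0.42, and its second probe set by -0.37. Ephb6, which lacks kinase activity, differed by 0.19, Ephb3 by 0.04 and Ephb4 by -0.11.

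Of the 3 semaphorins with an unadjusted p under 0.05, the membrane-bound Sema6a and Sema4d had lower means and the secreted Sema3e a higher one. Sema6a is a transmembrane ligand of A-type plexins that oligodendrocytes express as they differentiate. It stood at 7.81, 7.65 and 7.68 in wild type and at 7.17, 7.34 and 7.26 in transgenic lesions. The groups did not overlap, with small spread in both. The means of 7.71 ± 0.08 and 7.26 ± 0.09 (SD, n = 3) differed 1.37-fold (-0.46, SE 0.14). Its unadjusted p was 0.0113 and its adjusted p 0.471 in limma, and with a term for sex the unadjusted p was 0.0791. In class 6, Sema6d also had groups that did not overlap (-0.42, unadjusted p 0.0701), whereas Sema6b differed by -0.14 and Sema6c by 0.02.

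Sema4d, a ligand of B-type plexins made by oligodendrocytes and immune cells, stood at 7.15, 6.98 and 6.69 in wild type and at 6.38, 6.19 and 6.73 in transgenic lesions. The groups overlapped, since transgenic replicate 3 lay just above wild type replicate 3. The means were 6.94 ± 0.23 and 6.43 ± 0.27 (SD, n = 3), a 1.42-fold difference (-0.51, SE 0.20). The unadjusted p was 0.0359 and the adjusted p 0.534 in limma; the unadjusted p rose to 0.122 without wild type replicate 1, 0.0922 without wild type replicate 2, 0.0763 without transgenic replicate 1 and 0.0914 without transgenic replicate 2. With array weights, which lean on transgenic replicate 3, the difference was -0.24 (unadjusted p 0.104). The rest of class 4 lay between -0.22 for Sema4c and 0.10 for Sema4f, with Sema4g at -0.16, Sema4b at -0.04 and Sema4a at 0.09.

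Sema5a, a transmembrane semaphorin with thrombospondin repeats that oligodendrocyte lineage cells and some neurons make, stood at 7.37, 7.22 and 7.12 in wild type and at 6.99, 7.22 and 7.22 in transgenic lesions. The groups overlapped throughout, with a difference of -0.09 (SE 0.15, unadjusted p 0.550) and a 95% confidence interval from -0.44 to 0.25. Sema5b differed by -0.44 (unadjusted p 0.0509) and Sema7a, which is held by a lipid anchor, by 0.14.

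Of the secreted class 3 semaphorins, Sema3e is the one that binds plexin D1 without a neuropilin. Its level was 6.50, 6.91 and 6.93 in wild type and 7.06, 7.29 and 7.51 in transgenic lesions. All transgenic arrays lay above the wild type arrays, of which replicate 1 was lowest. The means of 6.78 ± 0.24 and 7.29 ± 0.23 (SD, n = 3) differed 1.42-fold (0.50, SE 0.19). In limma the unadjusted p was 0.0312 and the adjusted p 0.522; the unadjusted p was 0.114 without wild type replicate 1, 0.0517 without transgenic replicate 2, 0.106 without transgenic replicate 3 and 0.101 with a term for sex. With the striatal marker covariate, in a fit that leans on wild type replicate 1, the difference was 0.77.

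Sema3a and Sema3f, a repellent and an attractant of oligodendrocyte precursors in demyelinated tissue, had smaller differences with wide intervals. Sema3a stood at 5.19, 5.43 and 5.80 in wild type and at 5.55, 5.67 and 5.74 in transgenic lesions, close to the array medians of 5.34 to 5.59. Its difference was 0.18 (SE 0.19, unadjusted p 0.360, 95% confidence interval -0.25 to 0.62). Sema3f stood at 6.63, 6.76 and 6.61 and at 6.87, 6.11 and 6.65, with transgenic replicates 1 and 2 on either side of the wild type arrays (difference -0.12, unadjusted p 0.588). Sema3c differed by 0.33, Sema3g by 0.20, Sema3b by 0.01 and Sema3d by -0.19.

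**Figure D3:**
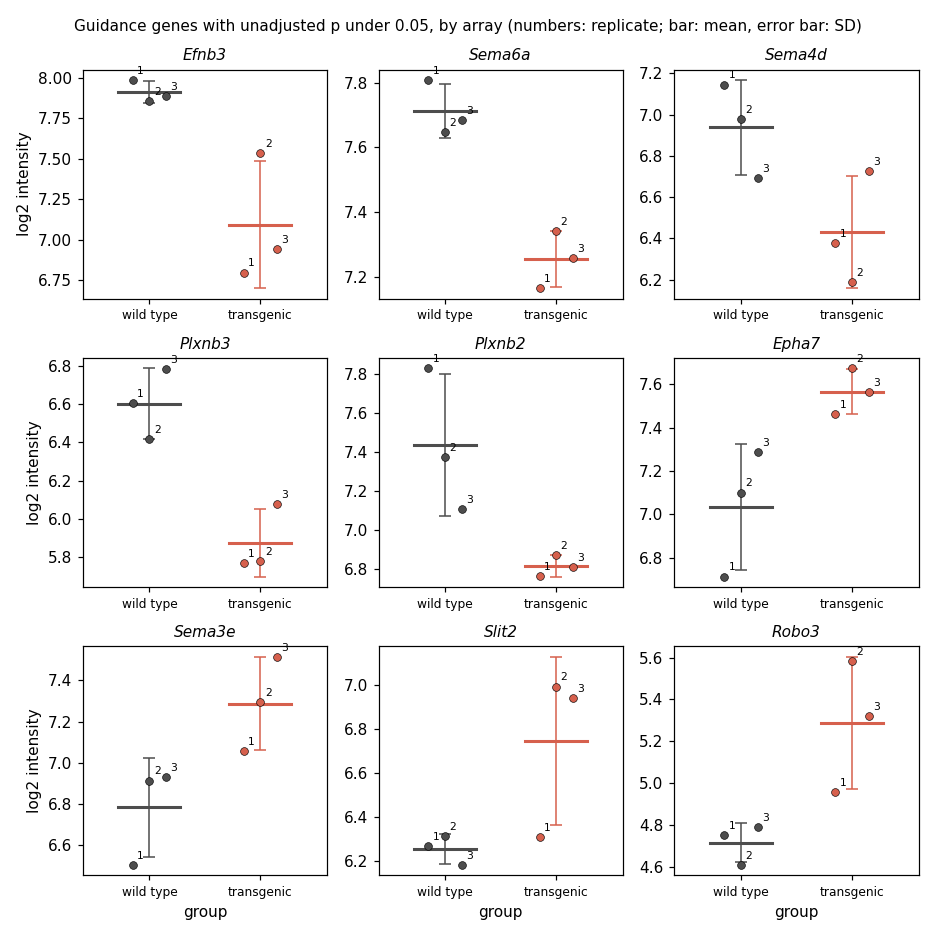
Each panel shows 1 of the 9 genes with an unadjusted p under 0.05, with log2 intensity on the vertical axis, replicate numbers beside the points, group means as bars and SDs as error bars. The groups do not overlap in 7 panels; in Sema4d and Slit2 1 transgenic array lies within the wild type range.

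Plexins are the semaphorin receptors, and the B-type plexins had the lowest differences among them. Plexin B3 is a receptor of Sema5a that is found mainly in oligodendrocytes in the brain. Its probe set (17535644) read 6.61, 6.41 and 6.78 in wild type and 5.77, 5.78 and 6.08 in transgenic lesions. Each transgenic array lay below each wild type array. Plxnb3 is X-linked. Only transgenic replicate 2 matched wild type in sex markers, so the parts of sex and genotype cannot be told apart with these arrays. The means of 6.60 ± 0.18 and 5.88 ± 0.18 (SD, n = 3) differed 1.66-fold (-0.73, SE 0.17). Its unadjusted p of 0.00300 was the smallest of all 66 members, with an adjusted p of 0.400 in limma. Among the 24 members followed through the alternatives, it was the only one to keep an unadjusted p under 0.05 in all 17 alternatives, where the largest was 0.0296 and differences ran from -0.83 to -0.52.

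Plexin B2, a receptor of Sema4d and Sema4c present in glia, microglia and vessels, stood at 7.83, 7.38 and 7.11 in wild type and at 6.77, 6.88 and 6.81 in transgenic lesions. The transgenic arrays lay close together and below a wide wild type range that wild type replicate 1 topped. The means of 7.44 ± 0.36 and 6.82 ± 0.06 (SD, n = 3) differed 1.54-fold (-0.62, SE 0.20, unadjusted p 0.0169, adjusted p 0.489 in limma). Without wild type replicate 1 the difference was -0.42 at an unadjusted p of 0.0514, and with a term for sex the unadjusted p was 0.0905. With the striatal covariate the difference was -0.98, in a fit that leans on wild type replicate 1, the highest array for Plxnb2. Microglia and macrophage markers had list means of 9.27 in wild type replicate 1 and 8.73 in transgenic replicate 1, the highest and second highest of the 6 arrays, and their part in the Plxnb2 difference was not tested. Plxnb1, the other Sema4d receptor, differed by -0.15, and by -0.27 in its second probe set.

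The A-type plexins, which carry class 3 and class 6 signals, differed by at most 0.17 (Plxna4), with Plxna1 at 0.02, Plxna2 at -0.01 and Plxna3 at -0.11. The second probe set of Plxna1 differed by -0.07. Plxnd1, the Sema3e receptor, stood at 6.46, 6.87 and 6.88 in wild type and at 6.56, 6.76 and 6.95 in transgenic lesions. Wild type replicate 1 and transgenic replicate 1 were the lowest in their groups, and the difference was 0.02 (SE 0.18, 95% confidence interval -0.41 to 0.44). Plxnc1, the Sema7a receptor, differed by 0.05. The neuropilins had differences near 0. Nrp1 stood at 7.59, 6.91 and 6.64 in wild type and 6.93, 7.27 and 6.95 in transgenic lesions (difference 0.00, SE 0.26), and Nrp2 at 6.13, 5.94 and 5.94 and at 5.90, 5.87 and 5.96 (difference -0.10, SE 0.14).

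Netrins and their Unc5 receptors had no member with an unadjusted p under 0.05. Ntn1, the founding attractant that acts through Dcc and also repels precursors, stood at 6.35, 6.34 and 6.44 in wild type and at 6.35, 5.86 and 6.62 in transgenic lesions. Its wild type arrays agreed closely while transgenic replicates 2 and 3 lay on opposite sides of them (difference -0.10, SE 0.21, unadjusted p 0.655). Ntn4, a netrin of basement membranes, stood at 5.14, 5.27 and 5.21 and at 4.81, 5.23 and 5.10, below all array medians (difference -0.16, unadjusted p 0.344). Ntn3 differed by 0.06.

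Unc5b, a netrin receptor of vessels that oligodendrocytes also carry, stood at 6.32, 6.01 and 6.27 in wild type and at 5.33, 6.11 and 5.71 in transgenic lesions. Transgenic replicates 1 and 3 were lower and replicate 2 lay within the wild type range (difference -0.48, SE 0.22, unadjusted p 0.0647, adjusted p 0.592). With a term for sex the difference was -0.08. Unc5d, a receptor of upper-layer cortical neurons, stood at 6.25, 6.51 and 6.39 in wild type and at 6.21, 7.09 and 6.92 in transgenic lesions (difference 0.35, SE 0.24, unadjusted p 0.184). Unc5a differed by 0.12 and Unc5c by -0.16.

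Slit2, a secreted repellent, stood at 6.27, 6.31 and 6.18 in wild type and at 6.31, 6.99 and 6.94 in transgenic lesions. Transgenic replicates 2 and 3 lay above every wild type array, and replicate 1 lay within the wild type range. The means of 6.26 ± 0.07 and 6.75 ± 0.38 (SD, n = 3) differed 1.40-fold (0.49, SE 0.21, unadjusted p 0.0488, adjusted p 0.561 in limma). The unadjusted p was 0.00163 without transgenic replicate 1 and lay between 0.0875 and 0.147 without any other single array. It was also above 0.05 with median centring (0.0604) and with the striatal covariate (0.136). Slit1 differed by -0.00, and Slit3 stood at 6.94, 7.26 and 7.41 and at 7.26, 7.31 and 7.05 (difference 0.01, SE 0.17).

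Of the robos, Robo3, which in development controls crossing of the midline, stood at 4.75, 4.61 and 4.79 in wild type and at 4.96, 5.59 and 5.32 in transgenic lesions. The groups did not overlap, but all arrays except transgenic replicate 2 read it below their median, and no detection calls were used here. The means of 4.72 ± 0.09 and 5.29 ± 0.31 (SD, n = 3) differed 1.48-fold (0.57, SE 0.19, unadjusted p 0.0186, adjusted p 0.492 in limma). The unadjusted p was 0.0653 without wild type replicate 2, 0.0515 without transgenic replicate 3 and 0.0654 with the striatal covariate, and the difference was 0.87 with a term for sex. Robo1, the main receptor of Slit2 with Robo2, stood at 7.36, 7.89 and 7.55 and at 7.20, 7.60 and 7.45 (difference -0.19, SE 0.19, unadjusted p 0.360). Robo2 differed by 0.21 and Robo4, an endothelial member, by 0.07.

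Some ligands can be set beside a known receptor, in pairs chosen after their values were seen. The ephrin Efnb3 differed by -0.82 and its receptor Epha4 by 0.34. Of the EphB receptors, Ephb1 differed by -0.42, Ephb4 by -0.11, Ephb3 by 0.04 and Ephb6 by 0.19. Ephb2 was not among the members, so the EphB receptors given here are incomplete. Sema3e differed by 0.50 and its receptor Plxnd1 by 0.02. Slit2 differed by 0.49, Robo1 by -0.19 and Robo2 by 0.21. Sema4d differed by -0.51 and its receptors Plxnb2 and Plxnb1 by -0.62 and -0.15. Sema5a differed by -0.09 and its receptor Plxnb3 by -0.73. No relation between ligands and receptors was tested.

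The order of the arrays differed between members. In 14 of 66 (21.2%, against 13.2% of all genes) the highest arrays were transgenic replicates 2 and 3. These were Efna5, Epha4, Epha5, Epha6, Epha7, Ephb6, Plxna1, Plxna4, Robo2, Robo3, Sema3c, Sema3e, Slit2 and Unc5d. Cortical neuron markers were highest on the same arrays. Transgenic replicate 1 was the lowest array for 25 members (37.9%, against 26.7% of all genes). The 5 members highest in wild type replicates 1 and 3 were Efnb3, Plxnb3, Sema5b, Sema6a and Unc5b, which is 7.58% of members against 6.09% of all genes, a share near the background. The myelin markers had their highest list means on those arrays, 9.53 and 9.28. The part of cell makeup, region and sex in these differences was not tested member by member beyond the fits given.

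**Figure D4:**
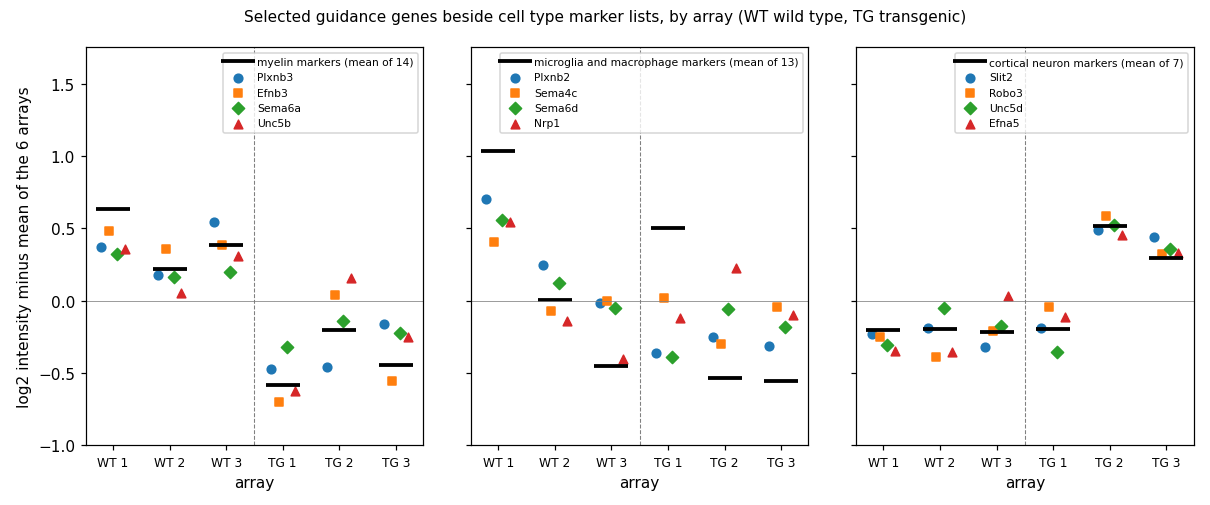
Each panel plots log2 intensity minus the mean of the 6 arrays for 4 guidance genes, chosen after their values were seen, beside the mean deviation of a marker list (black bars). Myelin markers and the 4 genes at left are mostly above 0 in wild type and below in transgenic lesions. In the middle, microglia and macrophage markers and Plxnb2, Sema4c, Sema6d and Nrp1 are highest in wild type replicate 1. On transgenic replicate 1 these markers and Sema4c are second highest, whereas Plxnb2 and Sema6d are lowest and Nrp1 lies between. Slit2, Robo3, Unc5d and Efna5 at right stand highest in transgenic replicates 2 and 3, as the cortical markers do.

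To show where these genes start, the 250 bases before the start of the members that had both an unadjusted p under 0.05 and no overlap are printed, where the RefSeq promoter table (GRCm38.p6) held them. They were Plxnb3 and Plxnb2 on the lower side and Epha7, Sema3e and Robo3 on the higher side. Where a gene had several windows, the one listed first was taken. Sequences run 5′ to 3′ on the gene's strand, and capitals mark E-boxes (CANNTG, bound by basic helix-loop-helix factors) and GC boxes (GGGCGG, or CCGCCC on the other strand, bound by Sp factors), which did not overlap each other here.
Plxnb3, chrX:73756853-73757102, plus strand: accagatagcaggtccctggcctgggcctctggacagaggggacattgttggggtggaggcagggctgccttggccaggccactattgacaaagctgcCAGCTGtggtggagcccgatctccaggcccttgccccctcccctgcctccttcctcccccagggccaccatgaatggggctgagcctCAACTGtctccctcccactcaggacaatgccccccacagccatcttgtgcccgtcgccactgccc
Plxnb2, chr15:89180789-89181038, minus strand: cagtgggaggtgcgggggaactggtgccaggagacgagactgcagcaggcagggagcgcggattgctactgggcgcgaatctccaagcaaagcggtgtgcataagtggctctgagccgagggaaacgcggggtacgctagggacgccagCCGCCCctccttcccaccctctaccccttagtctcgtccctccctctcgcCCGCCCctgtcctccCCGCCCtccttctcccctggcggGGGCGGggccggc
Epha7, chr4:28812881-28813130, plus strand: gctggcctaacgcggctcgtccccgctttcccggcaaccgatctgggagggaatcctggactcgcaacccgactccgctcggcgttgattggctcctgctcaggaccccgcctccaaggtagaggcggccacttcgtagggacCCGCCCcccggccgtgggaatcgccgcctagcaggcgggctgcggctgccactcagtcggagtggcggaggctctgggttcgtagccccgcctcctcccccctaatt
Sema3e, chr5:14025026-14025275, plus strand: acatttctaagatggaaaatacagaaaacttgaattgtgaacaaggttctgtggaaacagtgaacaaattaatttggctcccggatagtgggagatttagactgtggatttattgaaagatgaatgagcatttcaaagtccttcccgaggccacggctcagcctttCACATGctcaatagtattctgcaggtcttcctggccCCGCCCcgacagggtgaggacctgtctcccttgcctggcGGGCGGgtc
Robo3, chr9:37433176-37433425, minus strand: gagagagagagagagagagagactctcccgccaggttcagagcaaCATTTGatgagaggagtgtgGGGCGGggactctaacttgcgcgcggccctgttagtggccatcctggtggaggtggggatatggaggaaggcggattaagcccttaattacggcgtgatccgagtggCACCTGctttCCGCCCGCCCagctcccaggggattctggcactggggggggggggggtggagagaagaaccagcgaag

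The Plxnb3 window held no GC box, 2 E-boxes and 1 SOX site (ACAAAG, both strands). The Plxnb2 window held 4 GC boxes, and that of Robo3 held 2 E-boxes and 3 GC boxes, of which a pair overlap. Of the 57 members with a window, 43 (75.4%) held a GC box, against 43.2% of 16990 measured genes with a window of the same length. E-boxes were in 43.9% of members and 62.7% of measured genes, SOX sites in 10.5% and 14.9%, and TATA boxes (TATAAA) in 3.51% and 11.9%. A match is a description of letters, and none was tested as a binding site.

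Co-receptors and effectors of axon guidance were read from a list of other genes, of which 57 were measured. The list also held genes of growth inhibition by myelin, such as Rtn4r and Omg, from outside the 9 families' own signalling. No gene of this list passed the adjusted threshold. An unadjusted p under 0.05 was found for 5 (8.77%), a share near the 6.98% of all genes. Of the 57, 3 were lower, against 678 of 22180 genes (3.06%), and 2 higher, against 871 (3.93%). The groups did not overlap in 16 (28.1%, against 15.4% of all genes). Of the 57, 9 were lower, against 1553 of 22180 genes (7.0%), and 7 higher, against 1858 (8.38%). The median difference was -0.04. The largest was Rtn4r, the neuronal receptor that reads Nogo, Omg and Mag, inhibitors of axon growth in myelin. It stood at 7.70, 7.68 and 7.80 in wild type and at 8.45, 8.68 and 8.40 in transgenic lesions, with all transgenic arrays well above. The 1.72-fold difference (0.78, SE 0.14) had an unadjusted p of 8.45e-04 and an adjusted p of 0.297 in limma, and the unadjusted p was at most 0.00644 over 17 alternatives.

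Mical2, an actin-oxidising enzyme of the family that acts below plexins, stood at 8.48, 8.29 and 8.42 and at 8.72, 9.16 and 9.06, again without overlap (0.59, SE 0.17, unadjusted p 0.00899), and its unadjusted p was 0.0588 with the striatal covariate. Cntn2, an adhesion molecule of the juxtaparanode that myelinating glia also make, stood at 8.41, 8.02 and 8.19 and at 7.27, 7.68 and 7.62 (-0.68, SE 0.18, unadjusted p 0.00628), with an unadjusted p of 0.0666 with a term for sex. The kinase gene Abl1 differed by -0.41 (unadjusted p 0.0273) and Srgap1, a GTPase activator below robos, by -0.38 (unadjusted p 0.0408), both with lower transgenic arrays throughout. The unadjusted p of Abl1 and of Srgap1 was above 0.05 under several alternatives, among them median centring (0.0946 and 0.105) and a term for sex (0.232 and 0.133). The count of lower genes at an unadjusted p under 0.05 was 1 when either wild type replicate 2 or 3 was left out. Of all probe sets, 5.45% and 6.76% passed in those fits, in either direction. Omg differed by 0.32. Of the netrin receptors outside the Unc5 family, Dcc stood at 7.03, 7.31 and 7.75 in wild type and 6.74, 7.51 and 7.19 in transgenic lesions (-0.21, SE 0.26), and Neo1 differed by -0.33 (SE 0.24), with transgenic replicate 1 far below the other arrays at 7.39.

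**Figure D5:**
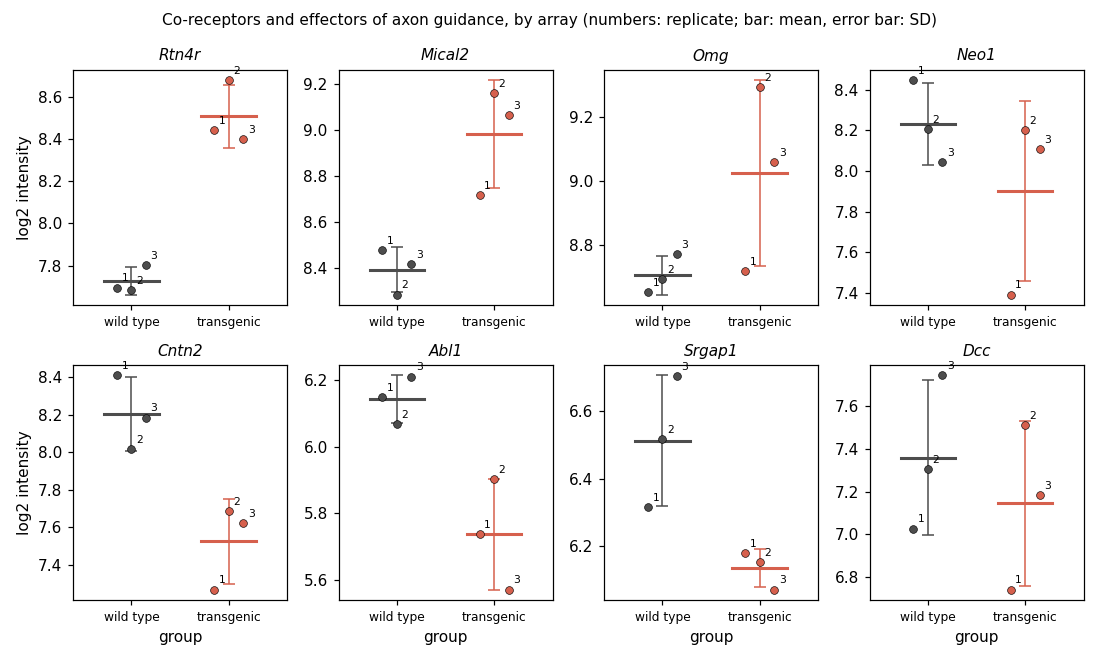
Each panel shows 1 co-receptor or effector, with log2 intensity on the vertical axis, replicate numbers beside the points, group means as bars and SDs as error bars. Rtn4r and Mical2 are higher and Cntn2, Abl1 and Srgap1 lower on every transgenic array, whereas Omg, Neo1 and Dcc overlap between groups.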

How the data were processed

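Per the submitters' processing notes, the authors used RMA in Affymetrix Expression Console, and the table they deposited holds 1 normalized intensity per probe set and array. The intensities were on a linear scale (3.73 to 15793) and were turned to log2 with no pseudocount. No batch term or detection filter was applied, since scan dates, detection calls, software versions and the build were not given in the sources used. Of 41345 probe sets, 23521 had 1 gene symbol, 1814 several and 16010 none in the platform annotation. Groups and replicate numbers come from the titles. All probe sets entered lmFit and eBayes of limma 3.58.1 in R 4.3.3, two-sided, with Benjamini-Hochberg adjustment over all of them. The members and gene lists were chosen with earlier results of these data known, so no p over a list is given. Genes named in full had no overlap at an unadjusted p under 0.05, the 2 smallest p-values of their family, or were on a list of 14 fixed genes; other members are given by difference. Simulated data for this comparison (41345 probe sets) had independent noise of equal spread in both groups, unlike these arrays. On them the test recovered 32 of 100 log2 shifts of size 1 and 93 of 100 of size 2, with 6 false calls. Both sizes exceed the difference of every member (at most 0.82 in size), so these rates do not carry over to the members. Precision is limited by having 6 arrays: the median half-width of a member's 95% confidence interval was 0.44, a 1.36-fold difference. Alternatives (17) covered scaling, an offset, a filter on dim probe sets, the choice of probe set, the variance model, array weights, the replicate block, sex, striatal markers and each array left out.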

Additional observations from a re-analysis of the deposited data

How the results depend on the processing

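The titles share replicate numbers, but deviations of same-numbered arrays correlated at only 0.01, -0.10 and -0.07, and no array correlated best with its own number. With the replicate block 5 members were lower and 3 higher at an unadjusted p under 0.05, and 1 co-receptor or effector was lower. Without the block these counts were 5, 4 and 3. Of all probe sets 7.25% passed with the block, against 8.87% without it. The unadjusted p was 0.07 for Sema4d and 0.0608 for Slit2 with the block. Array weights, which gave transgenic replicate 3 a weight of 7.67, let 8 members and 4 co-receptors or effectors pass the adjusted threshold, as did 2611 of 41345 probe sets (6.32%). At an unadjusted p under 0.05 they gave 9 lower and 13 higher members and 8 lower and 7 higher genes of the other list, where 26.1% of all probe sets passed, against 8.87% in the fit as reported. Medians there were -0.014 for ephrins and 0.01 for netrins, and Epha8 (0.009), Nrp1 (-0.072), Ntn1 (0.216) and Slit3 (-0.142) changed sign. With a term for sex 8 members were lower and 6 higher at an unadjusted p under 0.05, where 20.8% of all probe sets passed it and 3.58% the adjusted threshold. That fit gave 1 lower and 7 higher genes of the other list, 1 past the adjusted threshold. Its medians were 0.259 for Eph receptors, -0.01 for semaphorins, 0.026 for netrins and 0.171 for co-receptors and effectors, and Ntn4 (0.026) and Dcc (0.152) changed sign. With the striatal covariate medians were -0.336 for neuropilins, 0.262 for slits and 0.313 for robos. Among wild type arrays only replicate 1 had a striatal level like those of transgenic arrays, so that fit leans on this array. In that fit 1 gene of the other list was lower and 1 higher at an unadjusted p under 0.05. Of all probe sets 6.66% passed there. Nrp1 (-0.461), Robo1 (0.021) and Dcc (0.201) changed sign. Quantile normalization gave 5 higher members without overlap. Median centring gave a median of -0.015 for semaphorins. It also gave 1 lower gene of the other list at an unadjusted p under 0.05, where 8.32% of all probe sets passed. The filter on dim probe sets gave a median of -0.019 for netrins from the genes left, and the offset of 16 gave -0.002 for Nrp1. No scaling moved the median of all probe sets by over 0.1.

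Leaving out 1 array at a time gave these ranges: 0 to 1 members past the adjusted threshold, 3 to 6 lower and 0 to 10 higher at an unadjusted p under 0.05, and 9 to 11 lower and 4 to 14 higher without overlap, where fewer arrays overlap less by construction. The other list had 1 to 5 lower and 2 to 6 higher genes, with medians from -0.105 to 0.122. Of all probe sets, 4.91% to 12.5% had an unadjusted p under 0.05 in these fits, and 0.0% to 0.81% passed the adjusted threshold. Medians ran from -0.134 to -0.018 for semaphorins and from -0.186 to -0.007 for netrins. Differences near 0 changed sign: Nrp1 (-0.2 to 0.274), Ntn1 (-0.267 to 0.111), Plxnd1 (-0.121 to 0.115), Sema3f (-0.283 to 0.096) and Slit3 (-0.126 to 0.107). The cause of these changes was not tested. Of 24 members named in full, 16 kept their direction in every alternative that gave a value; the filter on dim probe sets left out Robo3, Ntn4 and Epha8. Array number limits what can be seen, and genes near the array medians are least certain.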
